A study of Capra hircus with 20 samples.

Results

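The genes described here write, erase and read DNA methylation, and their mRNA was followed in the goat hypothalamus from birth to sexual maturity. The set holds 9 of the 21071 genes with deposited values. DNMT1, DNMT3A and DNMT3B were taken as writers, UHRF1 as the partner of DNMT1, TET1, TET2 and TET3 as erasers, and MBD2 and MBD3 as genes of the reader family. They were chosen by name, with earlier results of these data known. Each symbol was matched to the gene identifier of the files through the goat ARS1.2 annotation.

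Hypothalami came from 20 healthy female Jining grey goats of a single breeding farm, kept under the same feeding, with 5 goats each at 1 day (D1), 60 days (M2), 120 days (M4) and 180 days (M6) of age. Jining grey goats are an early-maturing breed, so the stages run from newborn animals through puberty to mature animals. No transgene or drug is described for the goats, and the stages differ by age. Each goat gave 1 strand-specific library depleted of rRNA, and the values are FPKM, fragment numbers divided by the exon length of the gene and by the mapped reads of its library. Each age is a separate set of animals, so no goat was followed over time, and bulk tissue was measured rather than sorted cells.

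Methyl groups on cytosines of CpG dinucleotides are copied onto the new DNA strand after replication by DNMT1, which UHRF1 brings to hemimethylated sites, and are placed on unmethylated DNA by DNMT3A and DNMT3B. TET enzymes oxidise methylcytosine, which can then be lost by dilution or replaced by base excision repair. Brain neurons are known for high levels of oxidised methylcytosine and for continued DNMT3A activity after birth, and methyl-CpG-binding domain proteins such as MBD2 link methylated DNA to the NuRD complex, which removes acetyl groups from histones and moves nucleosomes. MBD3 is a NuRD subunit of the same family whose mammalian form binds methylated DNA weakly.

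The tissue label was first compared with its markers. Of 10 genes that mark the hypothalamus, among them HCRT, PMCH, AVP and OXT, which encode neuropeptides, between 0 and 8 reached 1 FPKM in a library. At least 7 of the 10 did so only in D1 replicate 1, M2 replicate 1, M6 replicate 4 and M6 replicate 5, and none did in M4 replicates 1, 3 and 5, so most of these markers were under 1 FPKM in most libraries, though AVP was above 0 in all 20. The neuron marker SNAP25 and the glial marker GFAP reached 1 FPKM in all 20 libraries. Of the other neuron markers, RBFOX3 did so in 10 and SLC17A6 in 19. The oligodendrocyte progenitor markers CSPG4 and GPR17 did so in 11 and 19. The summed FPKM of the 5 oligodendrocyte markers ran from 114 to 3808, and that of the 8 neuron markers from 131 to 2944. Pituitary markers summed to at most 1.65 FPKM. The FPKM of all genes summed to between 260199 and 377479 per library, and 1 gene held 23.9% of the sum in M2 replicate 3. The part of these differences in the values below was not tested. In bulk tissue, fewer cells of a type and less RNA per cell cannot be told apart.

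All 9 members were detected in all 20 libraries. By mean FPKM, which is scaled by length and can be compared between genes, the order was MBD2 at 13.9, TET2 at 11.7, TET1 at 11.2, MBD3 at 9.26, DNMT1 at 5.46, DNMT3A at 4.44, TET3 at 2.56, DNMT3B at 2.10 and UHRF1 at 1.88. Over the 20 libraries the ranges of all neighbours in this order overlapped. MBD2 lay above TET2 in 15 of 20 libraries, TET2 above TET1 in 13, and DNMT3B above UHRF1 in 7. The clearest steps were those from MBD3 down to DNMT1 and from DNMT1 down to DNMT3A, each in 17 of 20 libraries, and that from DNMT3A down to TET3 in 18. MBD3 and DNMT1 did not overlap at D1 and at M6, and DNMT3A and TET3 did not overlap at D1. At the top, MBD2 led at D1, M4 and M6, and TET2 led at M2 with 13.0 FPKM against 11.9 for MBD2.

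**Figure D1:**
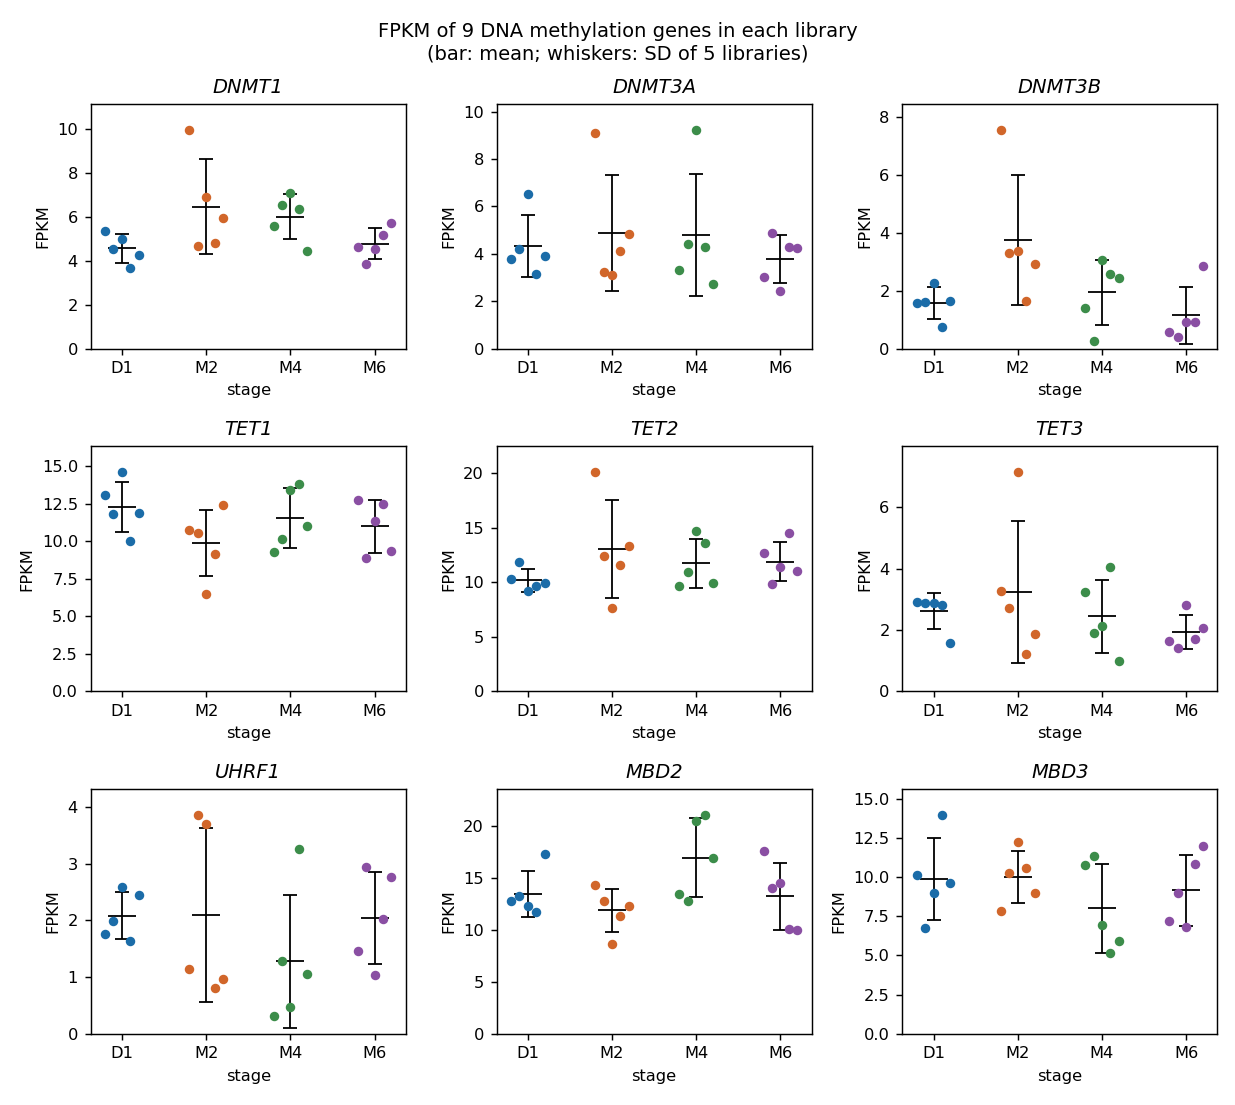
FPKM of the 9 genes (vertical axis of each panel, starting at 0) in each library at D1, M2, M4 and M6, with a bar at the mean and whiskers of 1 SD of 5 libraries. The stages overlap in every panel, and the highest value of DNMT1, DNMT3B and TET2 belongs to the same M2 library.

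The question of the design is whether these genes change as the goats mature. No member passed the thresholds in any stage comparison: with limma on log2(FPKM + 0.1), the Benjamini-Hochberg adjusted p over all genes tested ran from 0.324 to 0.992 in the 63 values of 9 members and 7 comparisons. For a call, the adjusted p had to be under 0.05 and the log2 fold change 1 or more in size, the thresholds the study used for its lncRNAs. All 9 members were among the 16771 genes tested, which had 0.1 FPKM or more in 5 or more libraries. Few genes of any kind were called. The called share of all genes tested was 0% in M2 vs. D1, M4 vs. M2, M6 vs. M4 and M6 vs. M2, 0.0537% for M4 vs. D1, 0.00596% for M6 vs. D1, and 0.0596% when the mean of the 3 later stages was set against D1. In the moderated F test over the 4 stages, which asks whether any stage differs, 0 members and 0.00596% of all genes had an adjusted p under 0.05, and the adjusted p of the members ran from 0.464 to 0.918. The counts over all genes rest on single libraries. Without D1 replicate 4 they went from 0 to 10 in M2 vs. D1, from 9 to 33 in M4 vs. D1, from 1 to 20 in M6 vs. D1, from 10 to 34 in the later stages vs. D1 and from 1 to 17 in the F test, and without D1 replicate 1 the later stages vs. D1 gave 1. Members called stayed at 0 whichever library was left out.

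At an unadjusted p under 0.05, limma gave 2 of the 63 values. They were DNMT3B in M6 vs. M2, beside 6.14% of all genes, and MBD2 in M4 vs. M2, beside 8.68%. In M2 vs. D1 it gave 0 of 9 members beside 15.6% of all genes, 0 beside 8.71% for M4 vs. D1, 0 beside 7.41% for M6 vs. D1, 0 beside 6.87% for M6 vs. M4 and 0 beside 11.7% for the later stages vs. D1. The F test gave 1 member, DNMT3B, beside 10.4%. The comparisons that use D1 share the same 5 newborn libraries. No member had groups of libraries that did not overlap, in M2 vs. D1, where 3.82% of all genes had such groups, and in the later stages vs. D1, where 0.143% had.

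The width of the intervals shows which changes the 5 goats per stage could have missed. In 44 of the 63 values the 95% interval of the log2 fold change lay wholly between -1 and 1, so a 2-fold change lay outside it. The values with wider intervals include every comparison of DNMT3B and UHRF1, the members with the lowest mean FPKM. They also include TET3 in every comparison but M2 vs. D1 and the later stages vs. D1. In M2 vs. D1 the median size of the members' log2 fold change, sign left aside, was 0.27, against 0.37 over all genes tested, and the signed medians were 0.10 and -0.07. For the later stages vs. D1 the signed medians were -0.01 for the members and -0.07 for all genes.

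**Figure D2:**
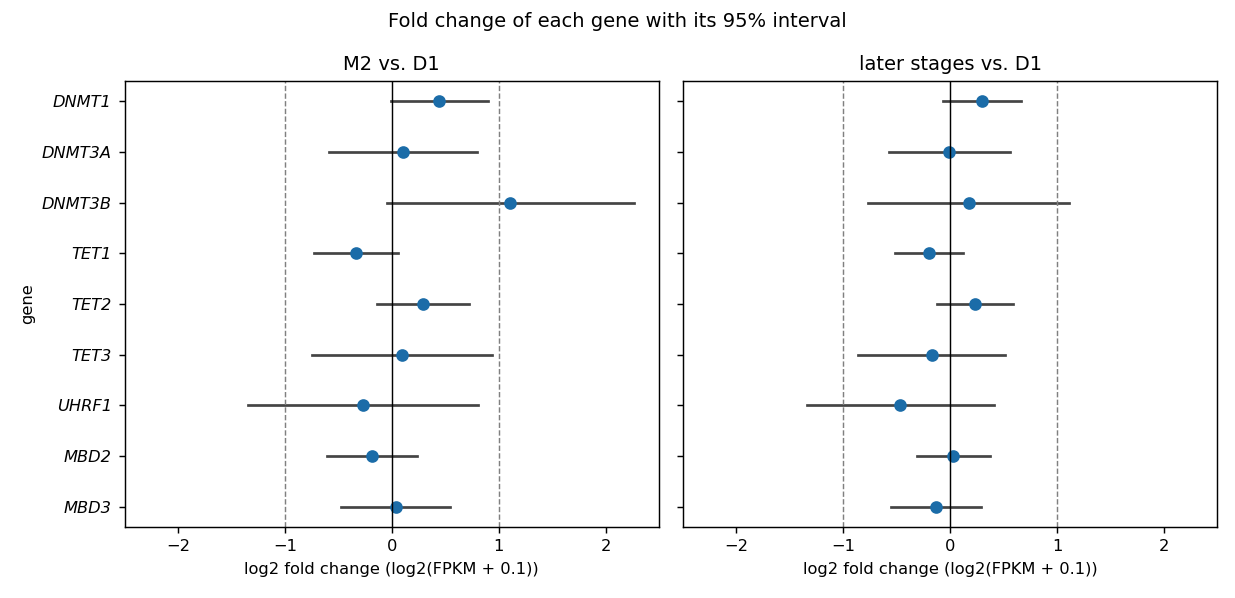
Log2 fold change of each gene on the log2(FPKM + 0.1) scale (points) with its 95% interval from limma (lines), in M2 vs. D1 and in the later stages vs. D1, with dashed lines at -1 and 1. Each interval crosses 0, and those of DNMT3B and UHRF1 are the widest.

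DNMT1, the maintenance methyltransferase, lies on chromosome 7 from 94592972 to 94637289 of ARS1.2 and overlaps no other annotated gene. Its FPKM was 5.36, 4.52, 5.01, 3.68 and 4.28 in the 5 D1 libraries, and 9.97, 4.67, 6.93, 4.79 and 5.96 in those of M2. It was 5.60, 6.55, 7.09, 6.38 and 4.43 at M4, and 4.62, 3.86, 4.55, 5.19 and 5.71 at M6. Of the M2 libraries 3 lay above every D1 library, as did 4 at M4 and 1 at M6, and the groups overlapped in each comparison. The D1 mean was 4.57 ± 0.652 (SD, n = 5), that of M2 6.47 ± 2.17, that of M4 6.01 ± 1.03 and that of M6 4.79 ± 0.700. In M2 vs. D1 the log2 fold change of DNMT1 was 0.45 (SE 0.22), with the smallest adjusted p of all members and comparisons in limma, 0.324. The value of M2 replicate 1 was the highest of all 20 libraries, and without that library the fold change of DNMT1 was 0.28. It was 0.26 with library quality weights, 0.21 with the mapping rate as a covariate (adjusted p = 0.906 in limma) and 0.17 without M2 replicates 1 and 3 and M6 replicate 3.

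DNMT3A, a de novo methyltransferase, lies on chromosome 11 from 73679835 to 73784188, where it overlaps the annotated gene LOC108637092. Its FPKM was 3.77, 4.20, 6.54, 3.14 and 3.92 at D1, and 9.11, 3.23, 3.13, 4.11 and 4.85 at M2. It was 3.30, 4.42, 9.23, 4.27 and 2.74 at M4, and 3.02, 4.89, 2.42, 4.29 and 4.25 at M6. A single library stood far above the rest at M2 and another at M4, and the other libraries of all stages lay between 2.42 and 6.54. DNMT3A had the least difference between stages of the 9 genes, with 5.23% of its variance of log2 values lying between stages against a median of 18.2% over all genes tested. Its log2 fold change was 0.10 (SE 0.33, limma adjusted p = 0.910) in M2 vs. D1 and -0.01 (adjusted p = 0.992) in the later stages vs. D1. Without M2 replicate 1, the M2 vs. D1 value turned to -0.15.

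DNMT3B, the other de novo methyltransferase, lies on chromosome 13 from 61467790 to 61502090 with no overlapping annotated gene. At D1 its FPKM was 1.58, 1.61, 2.28, 0.746 and 1.66, and at M2 it was 7.55, 3.29, 3.36, 1.65 and 2.90. The M4 libraries had 1.40, 0.263, 3.04, 2.57 and 2.45, and the M6 libraries 0.590, 0.417, 0.934, 0.935 and 2.84. At M2, 4 libraries lay above all of D1, and at M6, 4 libraries lay below all of M2, while M6 replicate 5 fell inside the M2 range. Between its lowest and its highest library DNMT3B differed 28.7-fold, the widest span of the members, and 36.4% of its log2 variance lay between stages, the largest share among them. The M2 mean of 3.75 ± 2.23 (SD, n = 5) compared with 1.57 ± 0.545 at D1, a log2 difference of 1.11 (SE 0.55, 95% interval -0.04 to 2.26, limma adjusted p = 0.336). The M6 mean was 1.14 ± 0.976, and M6 vs. M2 gave -1.74 (SE 0.55, 95% interval -2.90 to -0.59), which had an unadjusted p of 0.0050 and an adjusted p of 0.746 over all genes. Without M2 replicate 1, DNMT3B in M2 vs. D1 was 0.82, and with M2 replicate 3 and M6 replicate 3 left out as well it was 0.72. With a pseudocount of 1, M6 vs. M2 was -1.13.

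Summed over the 3 methyltransferases, FPKM ran from 7.57 to 26.6. DNMT1 made up 46.8% of the sum on average, DNMT3A 37.0% and DNMT3B 16.2%. DNMT3B varied most in its share, from 2.34% in M4 replicate 2 to 29.4%, and its mean was 14.7% at D1, 23.9% at M2 and 15.3% at M4, and 10.9% at the last stage. DNMT1 was the largest of the 3 in most libraries, and DNMT3A was the largest in D1 replicate 3, M4 replicate 3 and M6 replicate 2. The log2 ratio of DNMT3A over DNMT1 differed by -0.34 in M2 vs. D1, which an exact two-sided permutation test over 5 and 5 libraries put at p = 0.159, and at 0.397 after adjustment over the 10 ratio tests made.

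**Figure D3:**
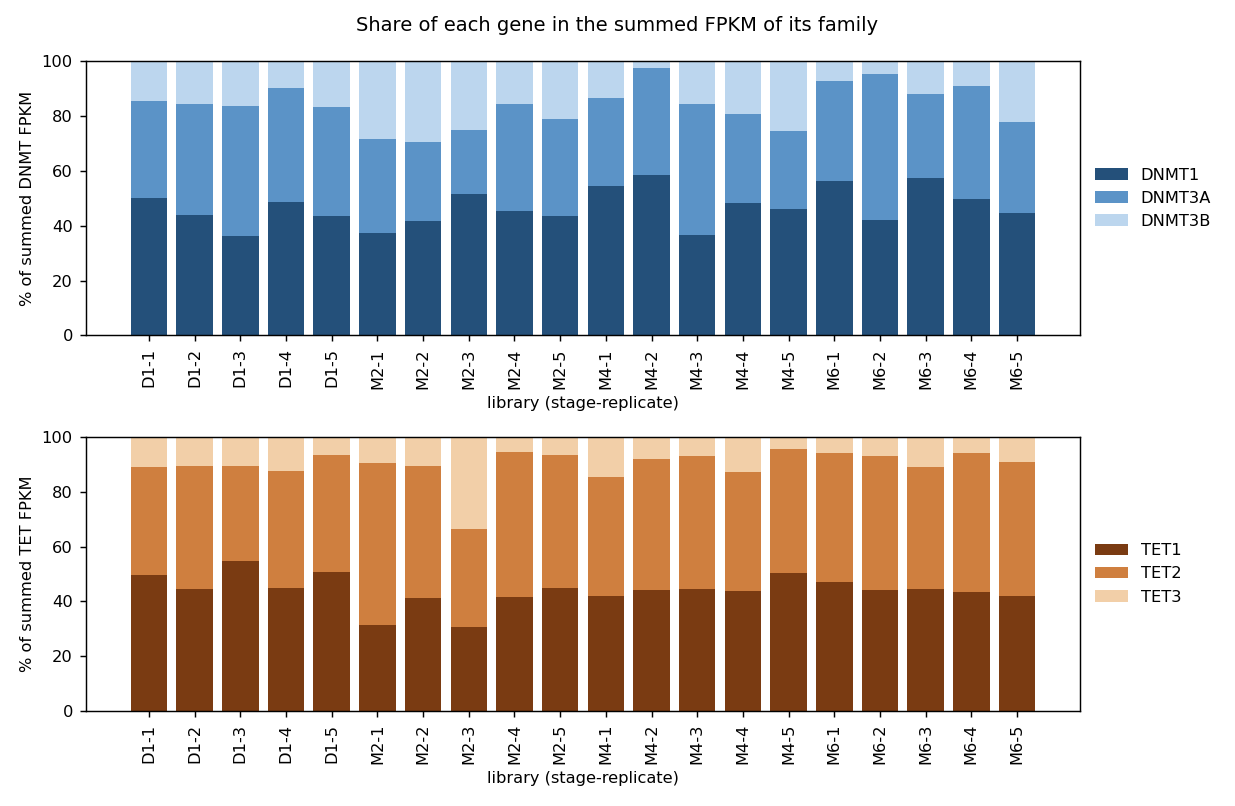
Share of each gene in the summed FPKM of the DNMT genes (upper panel) and of the TET genes (lower panel), in percent, for each of the 20 libraries named by stage and replicate. DNMT3B takes from 2.34% to 29.4% of its family, and TET3 stands out in M2 replicate 3 with 33.4%.

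UHRF1, which recognises hemimethylated CpG sites and recruits DNMT1, lies on chromosome 7 from 91290511 to 91325923 and overlaps ARRDC5 and the lncRNA LOC108636391 in the annotation, so reads of these genes may be shared. Its FPKM was 1.76, 1.98, 2.59, 1.63 and 2.45 at D1, and 1.15, 3.86, 3.69, 0.812 and 0.966 at M2. It was 0.318, 1.29, 0.475, 3.26 and 1.05 at M4, and 1.46, 2.94, 1.03, 2.02 and 2.76 at M6. The D1 libraries were close together, while M2 fell into 2 high and 3 low libraries with none between, and at M4 4 of 5 libraries lay below all of D1. Newborn goats had a mean of 2.09 ± 0.421 (SD, n = 5), M2 goats 2.10 ± 1.54, M4 goats 1.28 ± 1.18 and M6 goats 2.04 ± 0.818. For M4 vs. D1 the log2 fold change of UHRF1 was -1.03 (SE 0.51, 95% interval -2.11 to 0.04, limma adjusted p = 0.587), and without M4 replicate 4, the high library, it was -1.45. A pseudocount of 1 gave -0.56 and library quality weights -0.63. Within a library, the log2 ratio of UHRF1 over DNMT1 differed by -0.77 in the later stages vs. D1 (exact permutation p = 0.132, 15 and 5 libraries, adjusted p = 0.397).

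TET1, a dioxygenase with a CXXC domain that binds CpG-rich DNA, lies on chromosome 28 from 20598404 to 20735845 and overlaps the pseudogene LOC102186089. Its FPKM was 13.1, 11.8, 14.6, 10.05 and 11.9 at D1 and 10.8, 10.6, 6.51, 9.14 and 12.4 at M2. It was 9.29, 10.1, 13.4, 13.8 and 11.04 at M4 and 12.8, 8.91, 11.4, 12.5 and 9.37 at M6. TET1 was the steadiest of the members, with a 2.24-fold span between its extreme libraries and a within-stage SD of 0.26 on the log2 scale, where the median of all genes tested was 0.57. Its mean was 12.3 ± 1.69 (SD, n = 5) at D1 and 9.88 ± 2.22 at M2, with a log2 fold change of -0.33 (SE 0.19, 95% interval -0.73 to 0.06, limma adjusted p = 0.396).

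TET2 has no CXXC domain of its own and lies on chromosome 6 from 20216813 to 20352863 with no overlapping annotated gene. It had 10.3, 11.9, 9.18, 9.64 and 9.91 FPKM at D1 and 20.1, 12.4, 7.68, 11.6 and 13.3 at M2. The M4 values were 9.63, 10.98, 14.7, 13.6 and 9.97, and the M6 values 12.7, 9.81, 11.4, 14.6 and 11.004. The newborn libraries were close together, and M2 held both the highest and the lowest of the 20 libraries. The D1 mean was 10.2 ± 1.03 (SD, n = 5), with 13.0 ± 4.50 at M2, 11.8 ± 2.25 at M4 and 11.9 ± 1.81 at M6. TET2 gave 0.29 in M2 vs. D1 and 0.23 in the later stages vs. D1 on the log2 scale (limma adjusted p = 0.510 and 0.607), opposite in sign to TET1, for which the later stages gave -0.20 (adjusted p = 0.637). Without M2 replicate 1, TET2 in M2 vs. D1 was 0.12. With the replicate block and the mapping rate in the fit, TET2 was 0.0018 in M2 vs. D1 and 0.0031 in the later stages vs. D1.

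TET3, known as the main TET enzyme of the oocyte and zygote and also present in neurons, lies on chromosome 11 from 10425571 to 10535489 with no overlapping annotated gene. Its FPKM was 2.92, 2.87, 2.88, 2.80 and 1.56 at D1 and 3.25, 2.71, 7.13, 1.23 and 1.88 at M2. It was 3.22, 1.89, 2.11, 4.04 and 0.984 at M4 and 1.65, 1.42, 2.82, 1.70 and 2.05 at M6. At D1, 4 libraries were nearly equal and replicate 5 lay apart below them, whereas M2 replicate 3 had the highest TET3 of all libraries and the lowest TET1 and TET2. The log2 fold change of TET3 in M2 vs. D1 was 0.10 (SE 0.40, limma adjusted p = 0.934), and it was -0.24 without M2 replicate 3.

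Together the TET genes summed to between 20.1 and 34.1 FPKM, above the summed methyltransferases in every library. TET2 held 45.8% of the sum on average, TET1 44.0% and TET3 10.2%. TET1 was the larger of the first pair at D1, with 48.9% ± 4.35 (SD, n = 5) against 40.7% ± 4.04 for TET2, and the means were the other way round at M2, with 38.0% and 48.9%. The summed TET genes were 1.92 to 2.94 times the summed methyltransferases at D1 and 1.28 to 2.29 times at M2. This log2 ratio differed by -0.42 in M2 vs. D1 with an exact permutation p of 0.0556, the smallest of the 10 ratio tests, and an adjusted p of 0.397. The other 9 ratio tests had an adjusted p from 0.397 to 0.949, so no ratio passed. TET3 over TET1 differed by 0.43 in M2 vs. D1 (exact permutation p = 0.571) and by -0.05 without M2 replicate 3.

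MBD2, which binds methylated CpG sites and brings in NuRD, lies on chromosome 24 from 53793065 to 53860925 with no overlapping annotated gene. It had 12.8, 13.3, 12.3, 11.7 and 17.3 FPKM at D1 and 14.4, 12.8, 8.69, 11.4 and 12.3 at M2. The M4 libraries had 13.5, 12.8, 20.5, 21.1 and 17.0, and the M6 libraries 17.6, 14.02, 14.6, 10.1 and 9.96. At M4, 3 libraries lay above all of M2, and the other pair lay within its range. The means were 17.0 ± 3.83 (SD, n = 5) at M4 and 11.9 ± 2.10 at M2, with a log2 fold change of 0.50 (SE 0.20, 95% interval 0.08 to 0.92). Its unadjusted p was 0.0226 and its limma adjusted p 0.535.

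MBD3, the shortest of the 9 genes at 8656 bp, lies on chromosome 7 from 66519657 to 66528312 with no overlapping annotated gene. Its FPKM was 10.1, 6.72, 8.97, 13.96 and 9.64 at D1 and 7.86, 10.3, 12.2, 10.6 and 8.96 at M2. It was 10.8, 11.3, 6.92, 5.14 and 5.92 at M4 and 7.19, 8.95, 6.82, 10.9 and 11.99 at M6. The 3 lowest M4 libraries of MBD3, replicates 3, 4 and 5, were the 3 highest M4 libraries of MBD2. In M4 vs. M2 the log2 fold change of MBD3 was -0.37 (SE 0.25, limma adjusted p = 0.661).

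MBD2 tended to be high in the goats where MBD3 was low. Over the 20 libraries the log2 values of the pair had Pearson's r = -0.78 and Spearman's rho = -0.79, each with a permutation p of 4.0e-05 and an adjusted p of 0.00144 over the 36 pairs of members. The value was -0.70 without the 2 libraries farthest from the median of MBD2, -0.76 after the stage means were removed, and -0.83 to -0.72 when each library was left out in turn. How many pairs among all genes have an r as large in size was not counted. MBD2 was above MBD3 in 16 of 20 libraries, and the ratio ran from 0.711 in M2 replicate 3 to 4.11 in M4 replicate 4 with a median of 1.37. Between stages the log2 ratio of the pair differed by -0.22 in M2 vs. D1 (exact permutation p = 0.484) and by 0.16 in the later stages vs. D1 (exact permutation p = 0.663).

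A measure of the libraries was set beside the pair. The mean log2 value of 2540 genes longer than 100000 bp minus that of 4729 genes shorter than 10000 bp, a measure chosen after the data were seen, had r = 0.51 with MBD2 (adjusted permutation p = 0.0485) and -0.45 with MBD3 (adjusted p = 0.0685). By rank, Spearman's rho was 0.51 for MBD2 and -0.38 for MBD3, with adjusted permutation p values of 0.0968 and 0.169. Without the 2 libraries farthest from the median of the measure, r was 0.39 for MBD2 and -0.40 for MBD3. MBD3, at 8656 bp, is itself among the short genes, so its r is with a mean that includes it, and MBD2 is in neither set. With the measure of long against short genes held constant, the r between MBD2 and MBD3 was -0.72. Held constant in the same way, the mean of the oligodendrocyte markers gave -0.76, that of the neuron markers -0.78 and the mapping rate of the libraries -0.79. Over the 20 libraries no marker list had an adjusted permutation p under 0.05 with MBD2 or MBD3. After the stage means were removed, the oligodendrocyte markers had r = 0.55 with MBD2 and -0.70 with MBD3. The neuron markers then had -0.45 and 0.54. The part of cell makeup in the relation of the pair was not tested. With FPKM rescaled to the same sum in every library, r was -0.53, and the other scalings gave -0.80 and -0.75.

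**Figure D4:**
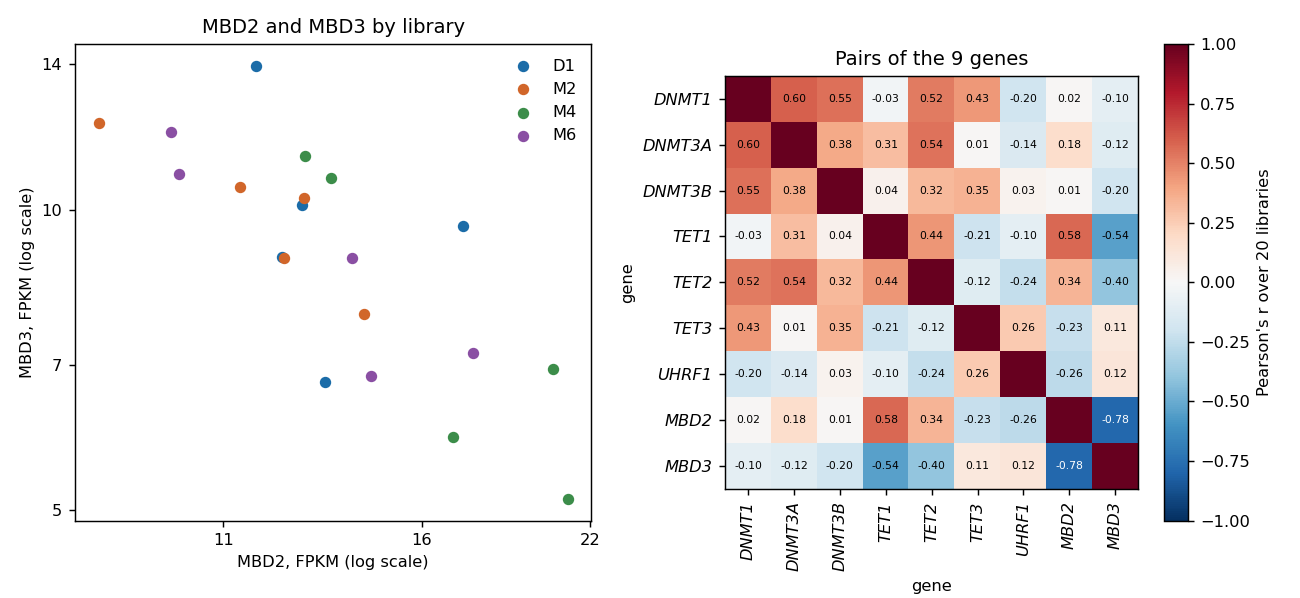
Left panel, MBD3 against MBD2 in FPKM (both axes logarithmic) for the 20 libraries, coloured by stage, with low MBD3 where MBD2 is high. Right panel, Pearson's r of log2(FPKM + 0.1) for each pair of the 9 genes over the 20 libraries, where the r of -0.78 between MBD2 and MBD3 is the largest in size.

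The other 35 pairs of members had an adjusted permutation p of 0.0876 or more for Pearson's r. DNMT1 and DNMT3A had r = 0.60, and 0.19 without the 2 libraries farthest in DNMT1. DNMT1 and DNMT3B had 0.55, and 0.31 without the same libraries, and DNMT3A and TET2 had 0.54, and 0.10 without the 2 farthest in DNMT3A. These relations rest on few libraries, among them M2 replicate 1. TET1 had r = 0.58 with MBD2 and -0.54 with MBD3, and 0.53 and -0.56 without the 2 libraries farthest in TET1. The median r of the 36 pairs was 0.03.

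M2 replicate 1 had the highest value of 3 members, DNMT1, DNMT3B and TET2, and M4 replicate 3 that of DNMT3A. In these libraries long genes were high against short genes, by 1.78 and 1.86 on the log2 scale, while the D1 libraries ran from 1.01 to 1.21. Over the 20 libraries the measure of long against short genes had r = 0.69 with TET2, 0.62 with DNMT1 and 0.58 with DNMT3A. The adjusted permutation p values were 0.00890, 0.0205 and 0.0273 over 10 relations. TET2 and DNMT3A, at 136051 and 104354 bp, are themselves among the long genes, so their r is with a mean that includes them. TET1 and TET3 are also among the long genes and had r = 0.23 and 0.06, and DNMT1 is in neither set. DNMT3B had r = 0.19 with the measure (adjusted permutation p = 0.476) and UHRF1 -0.46 (adjusted p = 0.0685). For TET2, DNMT1 and DNMT3A, Spearman's rho was 0.58, 0.49 and 0.45, with adjusted permutation p values of 0.0866, 0.0968 and 0.112. Without the 2 libraries farthest from the median of the measure, r was 0.46 for TET2, 0.29 for DNMT1 and 0.01 for DNMT3A. The relations of DNMT1 and DNMT3A thus rest on those libraries. The part of the measure in the stage values of these genes was not tested.

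The spread between goats also differed by stage. D1 had the lowest SD of log2 values among the 4 stages for 7 of the 9 members, and for 44.0% of all genes tested. For UHRF1 the SD was 0.28 at D1 and 1.03, 1.17 and 0.60 at M2, M4 and M6, and for TET2 it was 0.14 at D1 and 0.49, 0.27 and 0.21 later. TET3, with its lowest SD at M6, and MBD3, with its lowest at M2, were the exceptions. The medians over all genes were 0.40, 0.56, 0.57 and 0.51, so a low spread at D1 was shared by other genes.

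The markers of cell types and of dividing cells were set beside the members in the same libraries. Of 63 relations between the 9 members and 7 lists, none had an adjusted permutation p under 0.05, and the smallest was 0.177 for Pearson's r. Those of largest size were r = -0.61 of TET2 with the 18 genes of S phase and mitosis, 0.60 of TET2 with the microglia markers and 0.57 of UHRF1 with the astrocyte markers. UHRF1 and DNMT1, which act at replication forks, had r = 0.29 and -0.52 with the genes of S phase and mitosis (adjusted p = 0.526 and 0.205).

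Genes that work with the members, and 18 genes of S phase and mitosis, were followed as 6 lists with 66 genes tested. In limma, 0 of the 66 were called in any comparison, and at an unadjusted p under 0.05 there were 2 higher and 14 lower in M2 vs. D1, where 15.6% of all genes had such a p, and 1 higher and 11 lower in the later stages vs. D1, where 11.7% had. The counts were 0 and 12 in M4 vs. D1, beside 8.71% of all genes, and 1 and 8 in M6 vs. D1, beside 7.41%. They were 1 and 4 in M4 vs. M2 (8.68%), 5 and 4 in M6 vs. M4 (6.87%), and 3 and 1 in M6 vs. M2 (6.14%). Of these counts, the genes of S phase and mitosis gave 0 higher and 6 lower in M2 vs. D1. They gave the same in M4 vs. D1 and in the later stages vs. D1. The 9 other methyl-CpG readers had a median log2 fold change of 0.08 in the later stages vs. D1, where that of all genes was -0.07. Of these UHRF2, the paralog of UHRF1, had 0.37 (adjusted p = 0.331), with 12.3 FPKM at D1 and 16.4 at M2. For the 12 NuRD subunits the median was -0.05, and HDAC2, a histone deacetylase of the complex, had 42.4 ± 7.36 FPKM (SD, n = 5) at D1 and 25.0 ± 5.75 at M2, with a log2 fold change of -0.61 in the later stages (limma adjusted p = 0.157).

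For the 9 genes of demethylation and base excision repair the median was -0.40, with 3 lower and 0 higher at an unadjusted p under 0.05 in the later stages vs. D1, beside 11.7% of all genes. TDG, the glycosylase that removes the oxidised bases made by TET enzymes, had -0.55 (limma adjusted p = 0.165), and APEX1, the endonuclease that cuts the site left behind, had -0.43 (adjusted p = 0.201). The 10 genes of methyl donor supply had a median of -0.11 and the 8 cofactors one of -0.19, with HELLS, a chromatin remodeller needed for DNA methylation, at -0.94 (adjusted p = 0.375). The 18 genes of S phase and mitosis had a median of -0.45, with 0 higher and 6 lower beside the same 11.7%. TOP2A, a topoisomerase of dividing cells, was at -2.13 (limma adjusted p = 0.0766), and without D1 replicate 5 it passed with -2.70 (adjusted p = 0.0112). The list genes given by name were chosen after their values were seen.

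By likeness of pattern, Spearman's rho over the 20 libraries with 12363 genes of at least 1 FPKM, DNMT1 was most like ARHGEF11 (0.93), PTCD1 (0.89) and BRD1 (0.89). TET2 was most like SWT1 (0.91), BIRC6 (0.91) and BCL9 (0.90), and TET1 like VEZF1, CCDC88A and RBL1 (each 0.86). MBD3 was most like IQSEC2 (0.88), CARS2 (0.88) and FAM43B (0.86), whereas MBD2 was most like PGGT1B (0.81), NECTIN3 and WWC2 (each 0.78). DNMT1 and TET2 had 40 genes each with a rho over 0.8, MBD3 36 and TET1 19, and the other members had 1 or 0. DNMT3A was most like CHD6 (0.80), SPECC1L (0.76) and CACNA1D (0.73), and DNMT3B like ADD1 (0.80), KLHL1 (0.80) and BCAN (0.78). UHRF1 was most like GPAA1 (0.81), MFSD3 (0.78) and SIM1 (0.75), and TET3 was like PABPC4, PQBP1 and VPS37B (each 0.72). SIM1 is a hypothalamus marker, and UHRF1 had r = 0.37 with the mean of that marker list (adjusted permutation p = 0.497). The libraries share their scale and cell makeup, so these values describe shared patterns over the same 20 goats.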

How the data were processed

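RNA of 20 hypothalami was measured, 1 library per goat, and the replicates of a stage are separate goats. The deposited FPKM values come from the authors, who used fastp for trimming, HISAT2 2.0.5 for alignment to goat ARS1.2 and StringTie 1.3.3b for FPKM per gene. FPKM keeps no read counts, so the depth behind each value is unknown and no counting interval is given. It is relative to the mapped reads, so abundant transcripts in a library lower all other values. Whether strand was used in counting is not given in the sources used here. All 20 columns matched a sample and 0 were left unused. Of 21071 identifiers, 20610 matched the RefSeq annotation of ARS1.2.

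The 16771 genes reaching 0.1 FPKM in 5 or more libraries were fitted on log2(FPKM + 0.1), which understates the change of low genes, with limma 3.58.1 in R 4.3.3, the 4 stages as groups, no covariate and moderated variances with a trend. P values were adjusted over all genes tested by the Benjamini-Hochberg method. Ratios were tested with exact permutation tests and correlations with 100000 permutations, in Python 3.11.15 with numpy 2.4.6, pandas 2.3.3 and scipy 1.17.1. Figures were drawn with matplotlib 3.10.9. The fit was tested on simulated data. The genes named are every member, the list genes called or standing beside a result, and the 3 genes most like each member with a mean of at least 1 FPKM. Members and lists were chosen with earlier results of these data known. The pairs and their alternatives, the measure of long against short genes, the counts of non-overlapping groups and the SD by stage were added after the data were seen. Alternatives were the pseudocount, the filter, 3 scalings, no trend, the mapping rate, a block for the replicate number, library quality weights, a fit of only the libraries compared and leaving libraries out. No promoter or protein sequence was used. A marker gene was taken out of its list after the results were seen and is not reported here.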

Additional observations from a re-analysis of the deposited data

Results flagged for a closer look

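Within each stage, each member and each ratio was searched for a library far from the other 4, by Dixon's test at a critical value of 0.71 for the gap to the next library over the whole range. Of 56 groups 6 had such a library, where chance gives about 1 in 20. DNMT3A had 9.11 FPKM in M2 replicate 1, the next being 4.85, and 9.23 FPKM in M4 replicate 3, the next being 4.42. DNMT3B had 7.55 FPKM in M2 replicate 1 beside a next value of 3.36, and 2.84 FPKM in M6 replicate 5 beside 0.935. TET3 had 1.56 FPKM in D1 replicate 5, the lowest there, and the next was 2.80. The log2 ratio of DNMT3A over DNMT1 was 0.38 in M4 replicate 3, with -0.56 next to it.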

How the results depend on the processing

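No member was called under any of 34 other fits, which changed the pseudocount, filter, scaling, variance trend, weights, covariate or libraries, nor by the adjusted p alone. The smallest adjusted p among them was 0.152 in the F test with library quality weights, and 0.187 in a stage comparison, for DNMT1 in M2 vs. D1 without M2 replicate 4. Counts over all genes did change: library quality weights gave 148 calls in M2 vs. D1 (0 without weights), 65 for M4 vs. D1 (9), 95 for M6 vs. D1 (1), 223 in the later stages vs. D1 (10) and 170 in the F test (1). Weights also let TOP2A (-1.84), BIRC5 (-1.48) and MKI67 (-1.23) pass in the later stages vs. D1 and GADD45A (-1.37) in M6 vs. D1. BIRC5 and MKI67 are low, with means of 0.41 and 0.25 FPKM over all libraries. The M2 mean of MKI67, 0.60 FPKM, was above its D1 mean of 0.30. Leaving out each library in turn gave 0 to 10 calls in M2 vs. D1, 3 to 33 for M4 vs. D1, 0 to 20 for M6 vs. D1, 1 to 34 for the later stages vs. D1 and 0 to 17 in the F test, each highest without D1 replicate 4. Leaving out M2 replicate 5 gave 3 in M4 vs. M2 (0), and a pseudocount of 1 gave 1 in M6 vs. M2 (0). Other settings lowered the counts. The mapping rate as a covariate gave 0 in the later stages vs. D1 (10) and 3 in M4 vs. D1 (9). With the replicate block as well, both gave 0. In the later stages vs. D1, median-ratio scaling gave 1 and quantile normalization 3. The median of all genes lay between -0.11 and 0.07 over all settings.

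The signs of small fold changes turned. In M2 vs. D1, DNMT3A was -0.015 with weights, -0.14 with the mapping rate, -0.091 with the block and mapping rate and -0.060 without M2 replicates 1 and 3 and M6 replicate 3, 3 libraries left out together after the data were seen. TET3 was -0.0027 with quantile normalization, -0.30 with weights, -0.49 with the mapping rate, -0.047 with the block and mapping rate and -0.44 without the 3 libraries, which also put DNMT3A in M6 vs. M2 at 0.016. In the later stages vs. D1, DNMT3A was 0.00045 with a pseudocount of 1, 0.042 with median-ratio scaling and 0.060 with equal sums. DNMT3B there was -0.061 with weights, -0.019 with the mapping rate and -0.079 with the block as well. MBD2 was -0.11 with the mapping rate and -0.27 with both, and MBD3 0.073 and 0.18. The difference in medians for TET3 over TET1 was -0.24. The block with the mapping rate put MBD2 at -0.55 and MBD3 at 0.44 in M2 vs. D1, against -0.18 and 0.04, and the mapping rate put TET3 at -0.64 in the later stages vs. D1, against -0.17. The cause was not tested.

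Leaving out each library in turn gave ranges that crossed 0 for DNMT3A (-0.15 to 0.26), TET3 (-0.24 to 0.37) and MBD3 (-0.090 to 0.17) in M2 vs. D1, and for DNMT3A (-0.11 to 0.15), DNMT3B (-0.055 to 0.35), MBD2 (-0.018 to 0.12) and MBD3 (-0.26 to 0.0011) in the later stages vs. D1. The ratio of TET3 over TET1 ran from -0.053 to 0.68 in M2 vs. D1 and from -0.14 to 0.13 in the later stages, and MBD2 over MBD3 there from -0.019 to 0.29.

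With the replicate number as a block, 0 members were called in each comparison. Deviations of same-numbered libraries had r from -0.25 to 0.43 in 30 pairs, 7 of them over 0.1, with a median of -0.011. Libraries of other numbers had -0.36 to 0.42 in 120 pairs, 37 of them over 0.1, with a median of 0.004. Same-numbered libraries were thus no more alike than the others by this measure. Every stage holds each replicate number a single time, so the block alone cannot change a difference between stage means. The log2 ratio of summed TET over summed DNMT therefore stayed at -0.42 in M2 vs. D1 by design. With 5 goats a stage, changes of DNMT3B and UHRF1 by 2-fold stay within the intervals, as do those of TET3 in most comparisons. The lack of read counts leaves the precision of low values unknown.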
